A study of Homo sapiens with 7 samples.

Results

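The sites described here are the core FOXA1 sites: places in the genome where a FOXA1 peak was listed in every one of the 6 FOXA1 peak lists of the series and where no SETD7 peak was listed. The members were chosen by merging the peaks of the 6 lists on chromosomes 1 to 22 and X, joining peaks that shared at least 1 bp, and keeping each merged site that met both conditions. Of 172239 merged sites, 14138 were core sites, or 8.21% (95% Wilson interval 8.08 to 8.34, for counting error only). Presence in each list was therefore what selected them, and that presence is no finding.

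FOXA1 is a forkhead pioneer transcription factor that binds DNA in closed chromatin, helps to open it, and in luminal prostate cells marks enhancers that the androgen receptor then uses. SETD7 is a lysine methyltransferase that acts on histone and non-histone proteins, and the series asks how it bears on FOXA1, which its title names as a substrate. LSD1 (KDM1A) is a lysine demethylase, the target of GSK2879552, and PFI-2 is an inhibitor of SETD7.

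Chromatin immunoprecipitation with sequencing was done in 22Rv1, labelled CWR22-Rv1, and in LNCaP, both established human prostate cancer cell lines grown in RPMI-1640 with fetal bovine serum and crosslinked with 1% formaldehyde. FOXA1 was mapped in 22Rv1 cells with stable expression of a hairpin against SETD7 (shSETD7), in 22Rv1 cells with a control hairpin (shCTL; the series design calls the control shNTC) and in 22Rv1 cells labelled vehicle, and in LNCaP cells exposed for 4 hours to GSK2879552 plus PFI-2, to GSK2879552 or to DMSO. SETD7 was mapped in vehicle 22Rv1 cells. Each of the 7 groups was 1 library, so no difference between conditions has a replicate check and no test was made. The combination was placed by its title, since its treatment label reads as though PFI-2 may or may not be present, and no source used here gives doses. The agent behind "vehicle" in 22Rv1, the number of hairpins or clones and the SETD7 level after knockdown are not stated either, and the knockdown itself was not analysed here.

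Facts of the lists limit what can be compared. On chromosomes 1 to 22 and X the lists held between 63682 and 83633 peaks, and read depth is unknown from peak lists. Every peak has a whole-number score that is the authors' own value. Its lowest value was 13 in the 22Rv1 lists and 40 to 48 in the LNCaP lists. Its highest value was 35543 in shSETD7, 84065 in shCTL and 3392 in vehicle cells, and 3130 to 3780 in the LNCaP lists. The range thus differed within 22Rv1 as well, so scores were ranked only within a list, and scores printed below are not comparable between lists. In the vehicle FOXA1 list each of the 65461 peaks is named with siNTC, a tag found in no label, and the peak names place the shSETD7 and shCTL lists in 1 processing folder and the 3 LNCaP lists in another. Whether the vehicle list was processed like the other 22Rv1 lists was not tested. The lists carry no expression values, so the lines were not checked against marker genes. The shSETD7 list stood apart from the other 5 in the order of its core sites, as described below. The main counts that rest on it are given also without it. A count that asks for a condition in every list can only stay or rise when a list is left out. Only the number of core sites, their median merged width and their median gap to the next core site were recomputed with each list left out in turn. Other such changes are therefore not credited to shSETD7.

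As a set, core sites ranked in the upper part of every list. A high-scoring peak can more easily be listed in every list. Rank is thus bound up with the rule, and the high ranks are no separate finding. A site's list percentile is the percentile of its highest-scoring peak among all peaks of that list, with 100 the highest score. The median list percentile of the core was 82.3 in shSETD7, 85.2 in shCTL and 80.7 in vehicle 22Rv1 cells. It was 77.7 with GSK2879552 plus PFI-2, 74.6 with GSK2879552 and 76.5 with DMSO in LNCaP cells. Core peaks were 22.3% of the shSETD7 list, 17.05% of the shCTL list and 22.5% of the vehicle list, but 72.0% (4582 of 6367), 63.2% and 67.8% of the highest-scoring decile of those lists. In LNCaP they were 17.4% of the combination list, 22.8% of the GSK2879552 list and 18.1% of the DMSO list, and 49.3%, 56.8% and 49.8% of the highest decile. More of the highest FOXA1 peaks were thus core in each 22Rv1 list than in any LNCaP list. This contrast is bound up with the rule, which left out 8425 sites that lacked only a shSETD7 peak. Those sites had median list percentiles of 77.4 with the combination, 67.3 with GSK2879552 and 76.1 with DMSO. In shCTL and vehicle cells they had 69.8 and 64.4. The shares were not recomputed without shSETD7 in the rule, so the contrast is not read as a difference between the lines. In the lowest decile the core share lay between 0.698% in shCTL and 7.23% with GSK2879552.

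**Figure D1:**
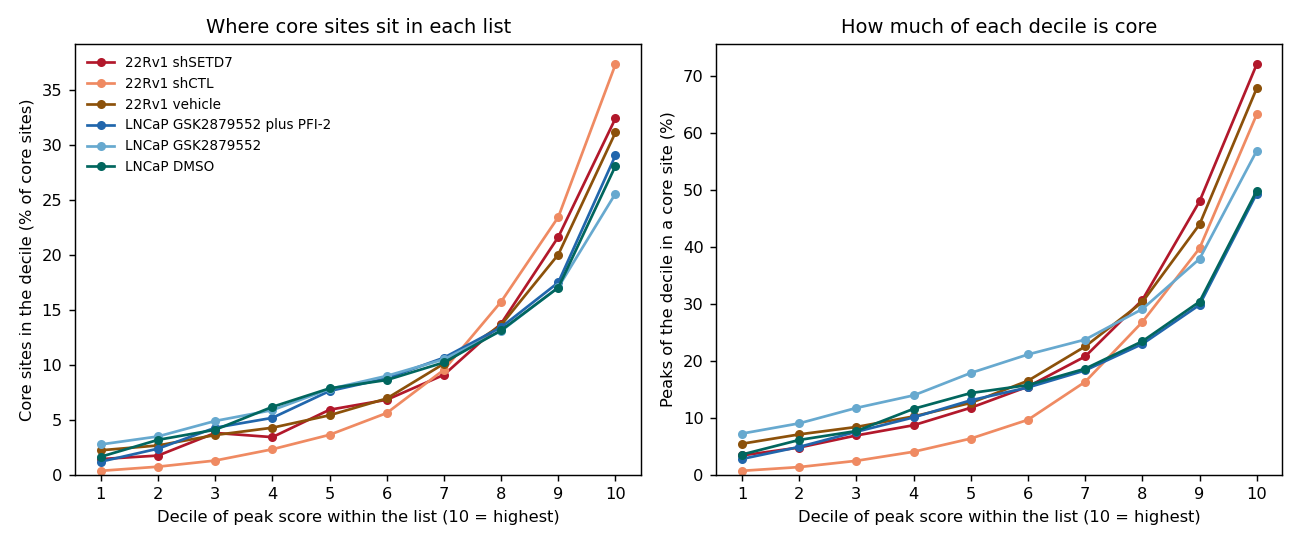
Share of the 14138 core sites in each decile of peak score (left, percent of core sites) and share of each decile's peaks that lie in a core site (right, percent of peaks), for the 6 FOXA1 lists, with decile 10 the highest scores. In each list most core sites lie in the upper deciles, and the highest decile is between 49.3% and 72.0% core.

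The deciles show the same thing for each list in turn: both curves climb toward decile 10, and the 22Rv1 curves end above the LNCaP curves in the right panel. Being common to all lists did not mean being high in all of them. Only 1169 core sites (8.27%) were in the highest decile of every list, while 8451 (59.8%) were in that decile of at least 1 list. The upper 50% of every list held 6944 core sites (49.1%), the lower 50% of at least 1 list held 7194 (50.9%), and the lower 50% of every list held 69 (0.488%). Without shSETD7, 1746 (12.3%) were in the highest decile of the other 5 lists, 7556 (53.4%) in that of at least 1 of them, 8032 (56.8%) in the upper 50% of all 5 and 185 (1.31%) in the lower 50% of all 5. Of the core sites, 32.4% in shSETD7, 37.3% in shCTL and 31.1% in vehicle cells were in the highest decile, as were 29.0% with the combination, 25.6% with GSK2879552 and 28.1% with DMSO.

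The highest core site by mean list percentile was on chromosome 17 from 5135379 to 5136003 (build hg19, as are all positions here). Its scores were 24906 in shSETD7, 26678 in shCTL and 3316 in vehicle 22Rv1 cells, and 3638 with GSK2879552 plus PFI-2, 3130 with GSK2879552 and 3499 with DMSO in LNCaP cells. These place it at the 99.99th percentile or above in each list. The next were on chromosome 2 from 242032617 to 242033317 (27135 in shSETD7, 22146 in shCTL, 3171 in vehicle, 3363 with the combination, 2799 with GSK2879552, 3146 with DMSO) and on chromosome 1 from 205672092 to 205672721 (16003, 29583, 3157, 3047, 2524 and 2813 in the same order). The 10 highest were on chromosomes 17, 2, 1, 15, 8, 10, 7, 14 and 16, with chromosome 8 holding 2 of them. Each was 1 peak per list, and their merged widths ran from 542 to 753 bp. Across these 10, which were picked as high in all lists, the difference in core rank (defined below) between any pair of lists of a line ran from -0.771 to 0.456 points.

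At the low end of the core stood chromosome 19 from 36869332 to 36870316, with a mean list percentile of 13.2. Its scores were 23 in shSETD7, 75 in shCTL and 37 in vehicle cells, and 117 with the combination, 65 with GSK2879552 and 123 with DMSO. No base of this site was covered by all 6 lists, so its peaks form a chain with no stretch common to every list. The site on chromosome 11 from 1144706 to 1145320 was uneven: its score was 256 in shSETD7, against 85 in shCTL and 39 in vehicle cells, and 61, 68 and 59 with the combination, GSK2879552 and DMSO. The 10 lowest had mean list percentiles of 13.2 to 20.1.

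The rule's edge runs through sites of 5 lists, of which 13359 had no SETD7 peak. The missing list was shSETD7 at 8425 of them (63.1%), vehicle at 2410 (18.0%), GSK2879552 at 867 (6.49%), shCTL at 683 (5.11%), DMSO at 588 (4.40%) and the combination at 386 (2.89%). The 8425 sites that lacked only shSETD7 were not weak elsewhere, with median list percentiles of 69.8 in shCTL, 64.4 in vehicle cells, 77.4 with the combination, 67.3 with GSK2879552 and 76.1 with DMSO. The sites that lacked only a LNCaP list were low in the other LNCaP lists, with medians of 21.3 to 25.9. Just inside the rule, 479 core sites had a percentile under 5 in at least 1 list, and their medians were 66.8 in shSETD7, 65.6 in shCTL, 44.5 in vehicle cells, 37.7 with the combination, 20.1 with GSK2879552 and 36.0 with DMSO. A further 393 sites of all 6 lists overlapped a SETD7 peak and were left out. They ranked higher in 22Rv1, with medians of 90.4 in shSETD7, 87.8 in shCTL and 85.9 in vehicle cells, than in LNCaP, with 61.8 with the combination, 66.6 with GSK2879552 and 61.4 with DMSO. Without the shSETD7 list in the rule, 22576 sites would be core.

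Core sites join at least 6 peaks, and their highest-scoring peaks were also wider than those of other merged sites in the same list. A wide peak can more easily overlap a peak of every list. Width is thus bound up with the rule, and the wider peaks are no separate finding. The merged width had a median of 529 bp (quartiles 450 and 658, range 262 to 2118), against 472 bp for sites of 5 lists and 259 bp for sites of 1 list. The stretch covered by all 6 lists had a median of 251 bp (quartiles 200 and 308). It was empty at 332 core sites (2.35%) and under 50 bases at 424. Most core sites, 13226 (93.5%), held exactly 1 peak of each list. The highest-scoring peak in a core site had a median width of 438 bp in shSETD7, 438 bp in shCTL and 337 bp in vehicle cells. The highest-scoring peak of the other merged sites of those lists had medians of 334, 321 and 246 bp. In LNCaP the core medians were 391 bp with the combination, 306 bp with GSK2879552 and 388 bp with DMSO, against 321, 252 and 320 bp for the other merged sites. Higher core sites had wider peaks: over the 14138 sites Spearman's rho of score and width was 0.484 in shSETD7, 0.496 in shCTL, 0.708 in vehicle cells, 0.703 with the combination, 0.693 with GSK2879552 and 0.726 with DMSO. Score and width come from the same peak call.

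Peak width at the same core sites differed between lists. With GSK2879552 the peak was narrower than with DMSO at 13198 core sites (93.4%), with a median difference of -78 bp. Among all 56542 sites shared by those lists 93% were narrower, so this was a property of the whole list. With the combination against GSK2879552, 4.97% of core peaks were narrower (5.11% of all shared sites) and the median difference was 81 bp, and against DMSO 47.4% were narrower (46.3% of all shared sites) and it was 2 bp. The shSETD7 peak was narrower than the shCTL peak at 46.5% of core sites, against 41.6% of all shared sites, with a median difference of 8 bp. The shSETD7 and shCTL peaks were wider than the vehicle peaks, by medians of 91 and 84 bp. The widest core site, on chromosome 10 from 82079152 to 82081269, was 2118 bp long and held 1 peak in shSETD7, 3 in shCTL, 3 in vehicle cells, 3 with the combination, 1 with GSK2879552 and 2 with DMSO. Its scores were 1165, 2509 and 671 in the 22Rv1 lists, in the order shSETD7, shCTL and vehicle, and 179, 146 and 178 in the LNCaP lists, in the order combination, GSK2879552 and DMSO.

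At a joining gap of 10 kb most core sites stood alone, and at 50 kb about as many stood alone as had a neighbour. The gap to the next core site had a median of 108580 bp (quartiles 40532 and 240431), against 120938 bp for the 13359 sites of 5 lists and 129048 bp for the 13265 sites of 4 lists. A core neighbour lay within 10 kb of 1735 core sites (12.3%), within 1 kb of 204 (1.44%) and within 100 kb of 70.9%. The gap depends on how many sites a class holds, and classes of 1 to 3 lists, which are larger, had shorter gaps. Joining neighbours at 10 kb or less gave 12403 single sites, 767 pairs, 57 groups of 3 and 7 groups of 4 or more, the largest of 6. Joining at 50 kb or less left 7170 single sites (50.7%), with 1911 pairs, 548 groups of 3 and 323 groups of 4 or more, the largest of 10. The densest places held 7 core sites within 100 kb and numbered 4. The tightest of them, on chromosome 4, ran from 169983562 to 170036653, 53092 bp in all. The others were on chromosome 1 from 235051673 to 235133453, on chromosome 12 from 54372017 to 54446794 and on chromosome 17 from 70596826 to 70680657. Members of these places had mean list percentiles between 44.5 and 96.6, so a dense place held both middling and high sites. Core sites with a neighbour within 10 kb had median ranks among core sites of 51.6 to 55.4 over the 6 lists, and those with none within 100 kb had 47.6 to 51.3.

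The distance to SETD7 peaks was compared with that of other FOXA1 sites that also overlapped none. The median distance to the nearest SETD7 peak was 67838 bp for the core, against 63592 bp for sites of 5 lists and 60878.5 bp for all 167408 such merged sites, while the upper quartile was 185386 bp for the core, 189760 bp for sites of 5 lists and 186765 bp for all such sites. A SETD7 peak lay within 10 kb of 14.1% of core sites (1996), against 16.7% of sites of 5 lists and 17.1% of all such sites. SETD7 peaks were unevenly placed: 70.2% were on chromosomes 1, 3, 7, 8 and 12, which held 35.6% of the core sites and 38.1% of all merged sites. The core share of merged sites was highest on chromosome 19, at 12.3% (11.2 to 13.6), then 11.7% on chromosome 22, 10.4% on chromosome 17 and 10.1% on chromosome 16. It was lowest on chromosome 21, at 6.60% (5.65 to 7.70), and 7.10% on chromosome 13.

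The order of the core sites was close to constant within LNCaP and less so within 22Rv1. Here each site's core rank is its percentile among the 14138 core sites of that list, so the rank compares the same sites in each list and does not depend on list length. Spearman's rho of core rank was 0.954 between the combination and DMSO, 0.896 between GSK2879552 and DMSO and 0.913 between the combination and GSK2879552. In 22Rv1 it was 0.572 between shSETD7 and shCTL, 0.469 between shSETD7 and vehicle and 0.697 between shCTL and vehicle. Across the lines, shCTL and vehicle each had rho of 0.437 to 0.469 with the LNCaP lists, while shSETD7 had 0.151 with the combination, 0.230 with GSK2879552 and 0.155 with DMSO. The shSETD7 order was thus the farthest from LNCaP of the 3 orders of 22Rv1. These coefficients are descriptions over 14138 sites that share their libraries and were chosen by being listed in all of them.

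**Figure D2:**
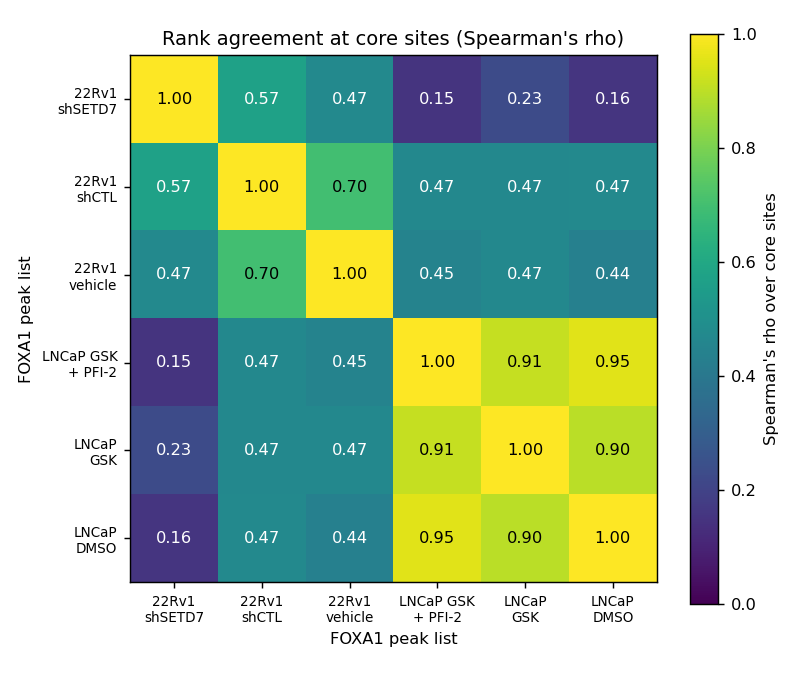
Spearman's rho of core rank between the 6 FOXA1 lists over the 14138 core sites (GSK, GSK2879552), with the colour scale from 0 to 1. The LNCaP lists share values of 0.90 to 0.95 among themselves, shCTL and vehicle 22Rv1 share 0.70, and the shSETD7 row is the lowest against LNCaP, at 0.15 to 0.23.

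The spread of a site over lists gives the same picture in points of rank. The gap between a site's highest and lowest core rank had a median of 10.9 points over the 3 LNCaP lists and 26.9 points over the 3 lists of 22Rv1. All 3 ranks lay within 20 points at 82.3% of core sites in LNCaP (11638) and at 34.9% in 22Rv1 (4941). Without shSETD7, shCTL and vehicle lay within 20 points at 67.3% of the sites. Over all 6 lists the median spread was 44.3 points, with 10.9% of core sites (1539) within 20 points. Without shSETD7 it was 33.9 points, with 22.6% (3197) within 20. A spread over fewer lists can only be equal or smaller, and here no other list was left out in turn. These changes are therefore not read as particular to shSETD7, and the share for shCTL and vehicle alone is not comparable with those of 3 lists.

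A stable top and a stable bottom remained. The highest 25% of core ranks in all 6 lists held 902 sites, and 1388 without shSETD7. The lowest 25% in all 6 lists held 277, and 652 without shSETD7. These groups were not counted over all 14531 sites of 6 lists, so the counts are not read as particular to the core. The 902 high sites had 362 bases covered by all 6 lists at the median and a core neighbour within 10 kb at 16.96% of them, against 157 bases and 9.39% for the 277 low sites. Without shSETD7 in the grouping these were 354 bases and 15.1% for the 1388 high sites, against 173.5 bases and 10.3% for the 652 low sites. The groups were chosen by score, which goes with peak width, so the common bases are no separate finding. Of the 300 core sites on chromosome X, 5 were among the 902, or 1.67%, and 9 among the 1388, or 3%, in both cases the lowest share of the 23 chromosomes.

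Some core sites were ordered by line. At 1181 core sites (8.35%, against 8.82% of all 14531 sites of 6 lists) every 22Rv1 rank was above every LNCaP rank by at least 20 points, and without shSETD7 at 1461 (10.3%). At 1103 (7.80%, against 7.67%) every LNCaP rank was above every 22Rv1 rank by at least 20 points, and without shSETD7 at 1438 (10.2%). The sites higher in 22Rv1 had median core ranks of 80.9 in shSETD7, 71.1 in shCTL and 72.1 in vehicle cells, and 17.3 with the combination, 20.7 with GSK2879552 and 18.3 with DMSO. The sites higher in LNCaP had medians of 21.5, 20.1 and 24.3 in the 22Rv1 lists, in the same order, and 77.7, 77.5 and 77.3 in the LNCaP lists. Without shSETD7 in the rule, the 1461 sites had medians of 71.6 in shCTL and 72.6 in vehicle cells, and 19.3, 21.6 and 20.1 in the LNCaP lists, and the 1438 sites had 19.9 and 22.1 in 22Rv1 and 74.9, 75.3 and 74.5 in LNCaP. With a list left out, both counts could only stay or rise. Both sets came from sites listed as peaks in both lines. A SETD7 peak lay within 10 kb of 18.6% of the sites higher in 22Rv1 and of 14.2% of those higher in LNCaP. Without shSETD7 these shares were 18.5% and 13.4%, and among all core sites the share was 14.1%. Chromosomes 1, 3, 7, 8 and 12 held 70.2% of the SETD7 peaks and 35.6% of the core sites. They held 40.8% of the sites higher in 22Rv1 and 31.4% of those higher in LNCaP, and without shSETD7 42.2% and 30.9%. Whether this uneven split accounts for the difference in SETD7 proximity was not tested.

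The knockdown comparison asks how the order of core sites in shSETD7 cells differed from that in shCTL cells. Core ranks moved by at least 20 points, in either direction, at 5780 core sites, or 40.9% (40.1 to 41.7). Over all 36983 sites shared by the 2 lists, ranked among themselves, the share was 35.4%, and on that scale it was 34.0% of the core. Since presence in both lists was part of the rule, nothing is read from these shares. Between shCTL and vehicle, neither with the SETD7 hairpin, 32.7% of core sites moved (37.4% of 42854 shared sites; 30.3% of the core on that scale). Between shSETD7 and vehicle it was 46.2% (42.6% of 28068 shared sites; 44.4% of the core on that scale). The 3 comparisons share lists, so they are not separate evidence, and each is also a comparison of single libraries. The direction of the moves depended on the ranking. By core rank, 2739 core sites were lower in shSETD7 than in shCTL by at least 20 points (19.4%; 17.4% of all shared sites) and 3041 were higher (21.5%; 18.0%). Ranked among all shared sites, 3430 were lower (24.3% of the core) and 1374 higher (9.72%), beside the same 17.4% and 18.0% of all shared sites. For shSETD7 against vehicle, 3129 were lower (22.1%; 20.6% of all shared sites) and 3401 higher (24.1%; 21.9%) by core rank. In the ranking of all shared sites these were 3554 (25.1% of the core) and 2727 (19.3%). For shCTL against vehicle, 2321 were lower (16.4%; 18.9% of all shared sites) and 2307 higher (16.3%; 18.5%) by core rank. In the other ranking these were 1681 (11.9% of the core) and 2609 (18.5%). A core rank can show only which core sites moved against others of the core, since their mean is fixed in every list.

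**Figure D3:**
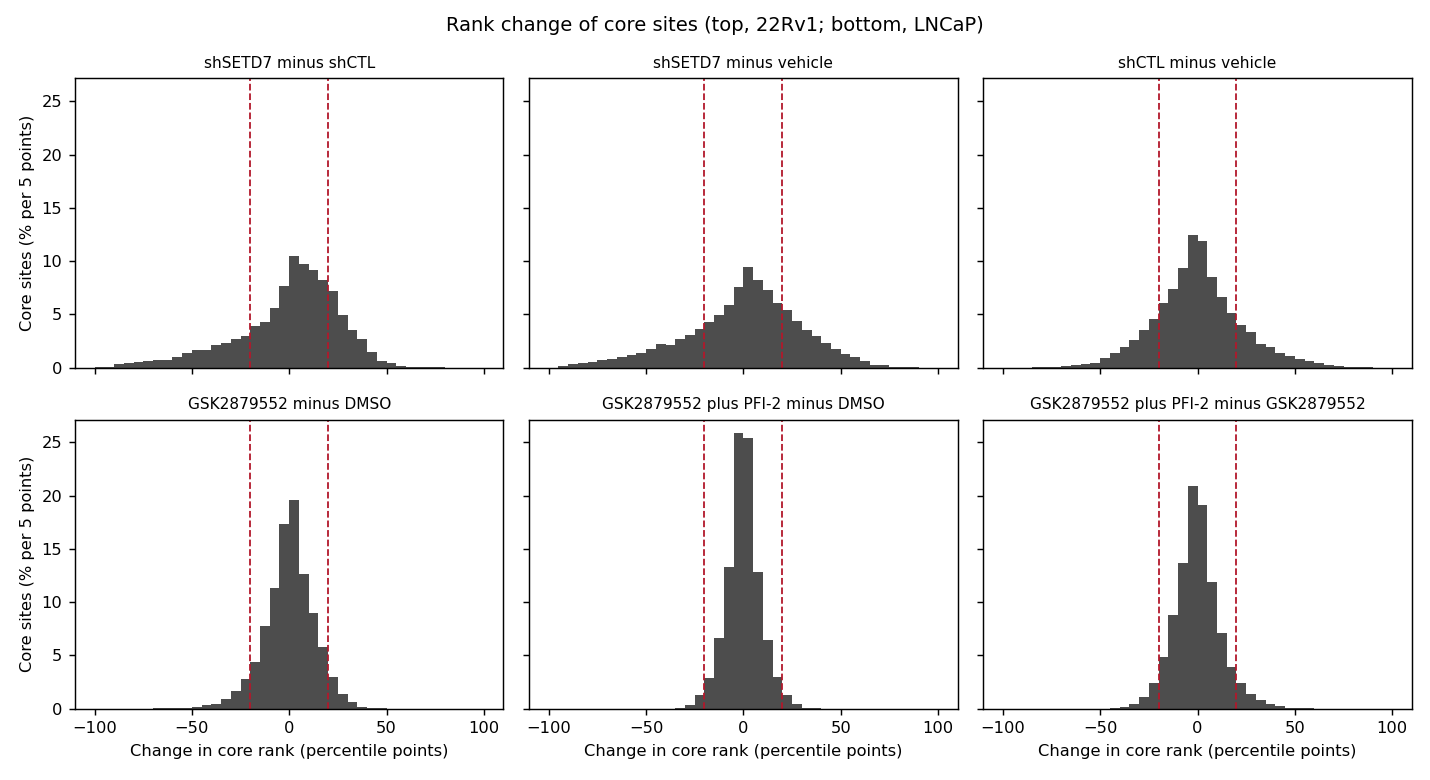
Histograms of the change in core rank (percentile points, first list minus second; percent of the 14138 core sites per 5 points) for the 3 comparisons in 22Rv1 (top) and the 3 in LNCaP (bottom), with dashed lines at 20 points down and up. On this core ranking the shSETD7 minus shCTL panel peaks just above 0 and has a long left tail, and the LNCaP panels are narrow, the combination minus DMSO the narrowest.

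The differences of shSETD7 minus shCTL were lopsided. Their median was 4.34 points (quartiles -12.9 and 17.9), and 8360 core sites (59.1%) had the higher core rank in shSETD7. On the shared scale the median was 0.0237 points (quartiles -19.1 and 8.91) and 50.1% were higher, so the positive median did not hold on that scale while the longer negative side did. On that scale 1229 core sites (8.69%; 4.86% of all shared sites) were lower by at least 50 points and 74 (0.523%; 0.841%) higher. By core rank, too, most differences of at least 50 points were negative: 836 core sites (5.91%; 4.86% of all shared sites) were lower in shSETD7 by at least 50 points and 128 (0.905%; 0.841%) were higher by as much. Against vehicle, 942 core sites (6.66%; 5.68% of all shared sites) were lower in shSETD7 by at least 50 points and 505 (3.57%; 3.18%) higher. In the comparison without the SETD7 hairpin the balance was the other way, with 200 core sites (1.41%; 2.37% of all shared sites) lower in shCTL than in vehicle by at least 50 points and 348 (2.46%; 3.29%) higher. In the ranking of all shared sites the split was 1239 lower (8.76% of the core) and 466 higher (3.30%) for shSETD7 against vehicle. For shCTL against vehicle it was 169 lower (1.20%) and 493 higher (3.49%).

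The most negative difference in core rank was on chromosome 14 from 41828763 to 41829743, with a score of 20 in shSETD7, against 5792 in shCTL and 823 in vehicle cells, and 799, 711 and 561 with the combination, GSK2879552 and DMSO. Its core rank was 0.70 in shSETD7 and 97.4 in shCTL. No base there was covered by all 6 lists, and its shSETD7 peak was 271 bp wide where the shCTL peak was 933 bp. The next, on chromosome 4 from 101701017 to 101701799, had 254 bases in common to all 6 lists. Its score was 35 in shSETD7, against 9165 in shCTL and 1293 in vehicle cells, and 1732, 1358 and 1854 with the combination, GSK2879552 and DMSO, so it was high in the other 5 lists and near the floor in shSETD7. Of the same kind were chromosome 7 from 88542106 to 88542868 (35 in shSETD7, 8634 in shCTL, 1013 in vehicle), chromosome 1 from 150548136 to 150548803 (24, 5009 and 1453) and chromosome 5 from 101558269 to 101558917 (27, 4792 and 744). These 5 were chosen for the size of their difference, so their values are a description.

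The largest positive differences were of several kinds. The site on chromosome 8 from 124665840 to 124666438 scored 3634 in shSETD7, against 95 in shCTL and 372 in vehicle cells, and 210, 141 and 160 with the combination, GSK2879552 and DMSO. Its core rank was 96.1 in shSETD7, 3.69 in shCTL and 69.2 in vehicle cells, and 16.4, 9.66 and 12.6 in the LNCaP lists, so it was higher in shSETD7 and vehicle cells than in shCTL. The sites on chromosome 1 from 222019185 to 222019647 (1854 in shSETD7, 155 in shCTL, 804 in vehicle) and on chromosome 11 from 129194368 to 129194874 (1754, 164 and 821) were instead low in shCTL alone, with vehicle core ranks of 89.0 and 89.3 beside shSETD7 core ranks of 89.4 and 88.7. The site on chromosome 2 from 48960116 to 48960644 was low in both other lists of 22Rv1, with scores of 921 in shSETD7, 58 in shCTL and 53 in vehicle cells, and high in LNCaP, at 1346, 899 and 1160 with the combination, GSK2879552 and DMSO.

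Low in shSETD7 and high everywhere else was the largest class of this kind. A core site was counted when its core rank was in the lowest 25% of a list and in the upper 50% of each of the other 5. In shSETD7 there were 471 such sites of the 3531 that were in the upper 50% of the other 5 lists, or 13.3% (12.3 to 14.5). In shCTL there were 37 of 2788 (1.33%) and in vehicle cells 93 of 2935 (3.17%). In LNCaP there were 0 of 2667 with the combination, which allows a share of up to 0.144% (upper Wilson bound), 6 of 2657 with GSK2879552 and 0 of 2684 with DMSO. Of all 14138 core sites these were 3.33% in shSETD7, 0.262% in shCTL, 0.658% in vehicle cells and 0.0424% with GSK2879552. With all 14531 sites of 6 lists ranked and counted in their place, the shares were 3.37% in shSETD7, 0.248% in shCTL, 0.64% in vehicle cells, 0.0413% with GSK2879552 and 0% with the combination and with DMSO. The reverse, the highest 25% in a list and the lower 50% of the other 5, held 65 core sites in shSETD7 (0.460%), 42 in shCTL (0.297%) and 44 in vehicle cells (0.311%), and 0 in each LNCaP list. Among all 14531 sites, ranked among themselves, it held 70 (0.482%), 41 (0.282%) and 45 (0.31%) in the 22Rv1 lists, in the same order. The order of a LNCaP list is close to that of both other LNCaP lists and no 22Rv1 list has such neighbours, so counts are not comparable between lines. Within 22Rv1, shCTL and vehicle were closer to each other (rho 0.697) than to shSETD7 (0.572 and 0.469). The larger shSETD7 count goes with that lower rho and is no separate finding.

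**Figure D4:**
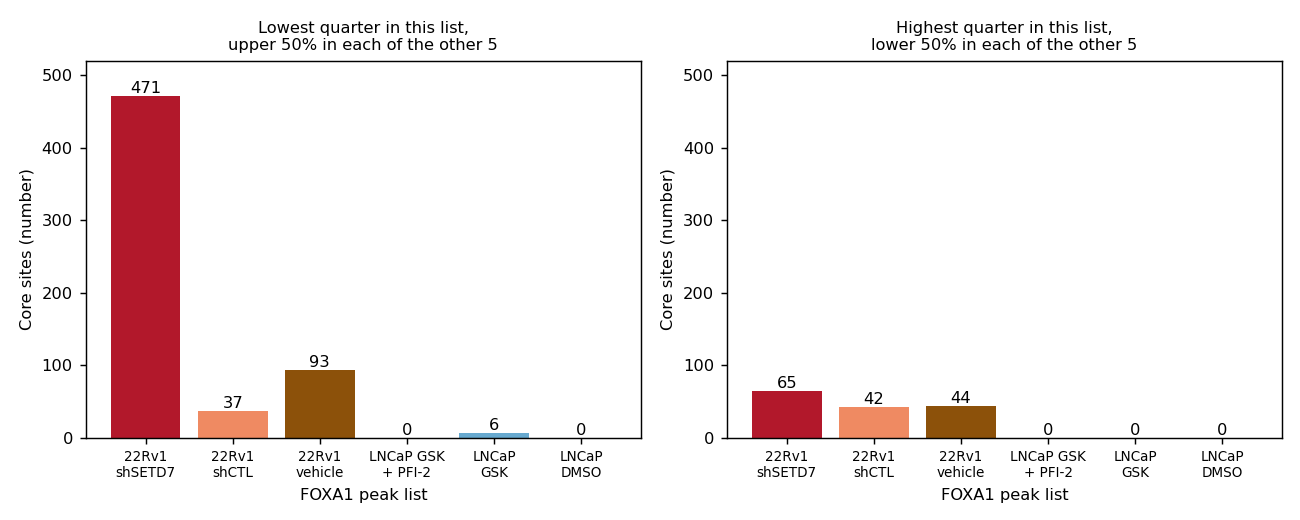
Number of core sites in the lowest 25% of core ranks of a list and the upper 50% of each of the other 5 (left), and in the highest 25% of a list and the lower 50% of the other 5 (right), for each of the 6 FOXA1 lists. The shSETD7 bar stands at 471 on the left, against 37 for shCTL and 93 for vehicle, and at 65, 42 and 44 on the right.

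These 471 sites had a median core rank of 12.4 in shSETD7, against 78.6 in shCTL, 78.9 in vehicle cells, 83.8 with the combination, 81.1 with GSK2879552 and 83.5 with DMSO. Having a peak in shSETD7 was part of the rule, which left out the 8425 sites that lacked only that list. The 471 had a median list percentile of 43.2 in shSETD7, against 93.2 to 95.3 in the other lists. Their shSETD7 peak was narrower, with a median of 369 bp, against 508 bp for their shCTL peak. At the other 3060 sites high in the 5 lists the medians were 505 bp in shSETD7 and 486 bp in shCTL. Fewer bases of the 471 were covered by all 6 lists, 265 against 336 at the median. The 471 were chosen by a low shSETD7 score, and score and width come from the same peak call. Neither the narrower peak nor the fewer common bases is therefore a separate finding. A SETD7 peak lay within 10 kb of 90 of the 471 (19.1%) and of 394 of the 3060 (12.9%), against 14.1% of all core sites. The share of core sites that were among the 471 was 5.41% on chromosome 13 (20 sites), 1.42% on chromosome 17 (7) and 0.560% on chromosome 19 (2 of 357).

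The shift also went with the site's rank in LNCaP, a line that had no hairpin. Core sites were placed in 4 groups of 25 points each by their LNCaP DMSO rank, from low to high, and the median change of shSETD7 minus shCTL was 14.6, 8.08, 2.25 and -4.10 points. The share higher in shSETD7 by at least 20 points was 37.0% in the lowest group and 8.69% in the highest, and the share lower by as much was 7.88% and 32.8%. Against vehicle the medians were 10.3, 6.86, 0.226 and -4.56 points. For shCTL minus vehicle they were -2.43, 0.341, -0.764 and -0.0566 points, with no such slope. The LNCaP comparisons, grouped by 22Rv1 vehicle rank, had medians between -1.36 and 1.46 points, and between -3.38 and 3.80 points on the shared scale. On that scale the medians of shSETD7 minus shCTL still ran downward, at 6.30, 1.77, -2.15 and -4.72 points, as did those of shSETD7 minus vehicle, at 5.97, 3.11, -2.35 and -4.87 points. The slope restates in points the low rho of shSETD7 with LNCaP.

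Rank change in shSETD7 also differed by chromosome. By core rank the median change of shSETD7 minus shCTL was above 0 on all 23 chromosomes and ran from 0.976 points on chromosome 8 and 1.68 on chromosome 13 to 8.57 on chromosome 16, 8.86 on chromosome 20 and 11.7 on chromosome 19. On chromosome 19, 275 of 357 core sites had the higher rank in shSETD7. Their median core rank was 60.8 in shSETD7, against 49.4 in shCTL and 47.9 in vehicle cells, and 40.3, 43.1 and 40.9 with the combination, GSK2879552 and DMSO. Against vehicle the chromosome 19 median change was 9.17 points, that of chromosome 22 was 8.31, that of chromosome 17 was 7.66 and that of chromosome 8 was -1.09. For shCTL minus vehicle the medians lay between -2.86 and 1.56 points. In the ranking of all shared sites, the median of shSETD7 minus shCTL was above 0 on 10 of the 23 chromosomes, and chromosome 19 was still the highest, at 4.48 points, and chromosome 8 the lowest, at -3.85. For shSETD7 minus vehicle it was above 0 on 21 chromosomes by core rank and on 10 on the shared scale, where chromosome 19 stood at 5.16 points and chromosome 8 at -3.60. Thus chromosome 19 was the highest and chromosome 8 the lowest in both comparisons on both scales, while the sign of many other medians depended on the scale. Both scales give medians of the core sites only. The same medians over all shared sites are not given here, so the pattern is not read as particular to the core. For shCTL minus vehicle the shared scale gave -0.747 to 2.54 points. Gene density, GC content and copy number were not analysed here, and their part in the chromosome differences was not tested.

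**Figure D5:**
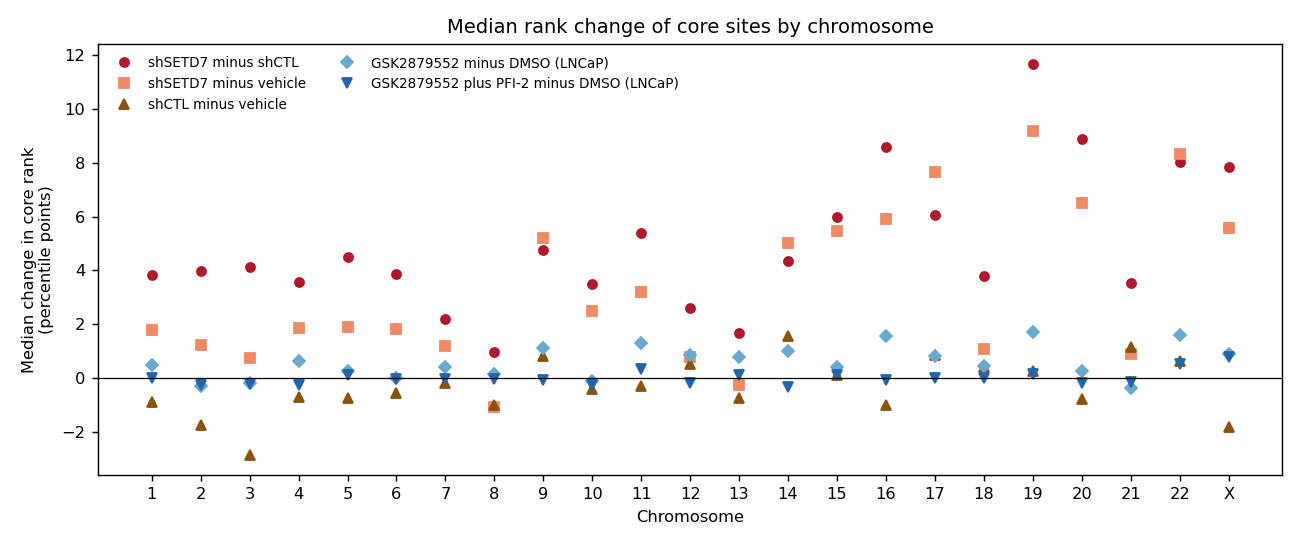
Median change in core rank (percentile points, first list minus second) of the core sites on each of the 23 chromosomes, for 3 comparisons in 22Rv1 and 2 in LNCaP. Both shSETD7 comparisons are highest on chromosome 19, at 11.7 points against shCTL and 9.17 against vehicle, while shCTL minus vehicle and both LNCaP comparisons stay between -2.86 and 1.70 points. On the shared scale, which is not drawn, the medians run from -3.85 to 4.48 points for shSETD7 minus shCTL and from -3.60 to 5.16 for shSETD7 minus vehicle.

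Of the core sites, 1717 moved by at least 20 points between GSK2879552 and DMSO, or 12.1% (11.6 to 12.7), against 23.9% of all 56542 shared sites and 18.1% of the core on the shared scale. Lower with GSK2879552 were 947 core sites (6.70%; 12.2% of all shared sites) and higher were 770 (5.45%; 11.6%). The median change was 0.493 points. In the ranking of all shared sites the balance turned, with 726 core sites lower and 1836 higher with GSK2879552 and a median of 2.27 points, above 0 on all 23 chromosomes. At 36 core sites (0.255%; 0.973% of all shared sites) the rank was lower with GSK2879552 by at least 50 points, and at 3 (0.0212%; 0.306%) it was higher by as much; ranked among all shared sites these were 54 and 56. The 947 lower sites were wide, with a median merged width of 661 bp, and the 770 higher sites were narrow, at 457 bp. The peak of the 947 was 299 bp wide with GSK2879552 and 447 bp wide with DMSO. Both groups were chosen by score, which comes from the same peak call as width, so the widths are no separate finding.

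The site on chromosome 7 from 17472297 to 17472923 had the most negative difference in core rank, with scores of 955 with the combination and 130 with GSK2879552, against 917 with DMSO. Next were chromosome 11 from 75206311 to 75207069 (827 with the combination, 82 with GSK2879552, 724 with DMSO), chromosome 8 from 86258782 to 86259509 (657, 107 and 765), chromosome 9 from 83364192 to 83365013 (1083, 154 and 980) and chromosome 3 from 100202789 to 100203527 (1080, 124 and 781). Their core ranks were 60.3 to 79.7 with the combination, 0.60 to 12.4 with GSK2879552 and 69.6 to 80.8 with DMSO. In the other direction, the site on chromosome 8 from 82754236 to 82755075 scored 256 with the combination and 539 with GSK2879552, against 119 with DMSO, and the site on chromosome 5 from 180524128 to 180524482 scored 434 with the combination and 484 with GSK2879552, against 79 with DMSO.

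Adding PFI-2 is seen in the combination against GSK2879552. Core ranks moved by at least 20 points at 1373 core sites (9.71%; 21.7% of 58013 shared sites; 15.8% of the core on that scale), of which 580 (4.10%; 10.6% of all shared sites) were lower with the combination and 793 (5.61%; 11.1%) were higher. On the shared scale, 1600 (11.3%; 10.6% of all shared sites) were lower and 633 (4.48%; 11.1%) higher, with a median of -2.06 points. Here too the balance depended on the ranking. At 24 core sites (0.170%) the core rank was higher with the combination by at least 50 points, as it was at 450 of all shared sites (0.776%) ranked among themselves. At 0 core sites it was lower by as much, against 98 of all shared sites (0.169%). In the ranking of all shared sites these were 40 (0.283% of the core) and 32 (0.226%). Of the 5 sites with the largest positive difference, 4 were among the 5 with the most negative difference for GSK2879552 against DMSO. The comparisons share the GSK2879552 list, so 1 low value of that list enters both. Between the combination and DMSO, 513 core sites moved by at least 20 points (3.63%; 13% of 70171 shared sites; 8.37% of the core on that scale). None moved by 50, with changes from -37.7 to 43.5 points. Of the 513, 243 (1.72% of the core; 6.45% of all shared sites) were lower with the combination and 270 (1.91%; 6.52%) higher. On the shared scale 553 core sites (3.91%) were lower and 631 (4.46%) higher. Of all shared sites, ranked among themselves, 17 (0.0242%) were lower by at least 50 points and 30 (0.0428%) higher. The 36 sites lower by at least 50 points with GSK2879552 than with DMSO had median core ranks of 64.0 with the combination, 9.95 with GSK2879552 and 68.4 with DMSO. Their peaks were 525 bp wide with the combination, 317 bp with GSK2879552 and 530.5 bp with DMSO, so their lower rank came in the list whose peaks were narrower overall. Whether the 1 GSK2879552 library differed from the others in depth or enrichment cannot be told from its peak list.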

How the data were processed

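The deposited files hold 1 peak per line with its position, a name and a score. The submitters' processing notes name MACS2 2.1.4, SAMtools 1.9, BWA 0.7.17-r1188, FastQC 0.11.9 and the build hg19, and their roles, settings, any input control and the score's definition are not stated in the labels or files used here. The score is the authors' own whole number for each peak and was used only for ranks within a list. Groups were taken from the titles, with 1 library each, each peak list belongs to 1 sample, and no test was made. From the deposited positions, merged sites were built with at least 1 bp of overlap and checked against bedtools 2.31.1, which gave the same 172239 merged and 14138 core sites. The code recovered the known sites of simulated lists. Those sites were far apart, and their scores were alike in all lists except where lowered on purpose. Sites with several peaks of a list were not simulated, so this checks the code on simple cases only. In a site with several peaks of a list, the highest score was used. The 2295 FOXA1 peaks on chromosome Y were left out. Positions are counted from 1. Named sites are the 10 highest and 10 lowest by mean list percentile, the 5 largest changes each way of 3 comparisons, the 5 widest and the densest places, and the text gives examples of each. The members, lists and thresholds were chosen with earlier results of these data known, and the counts of sites low in 1 list, of sites ordered by line, by quartile of the other line, for shSETD7 against vehicle, for directions ranked among all shared sites and from 5 lists without shSETD7 were added after the data were seen. Alternatives were other rules of joining and of overlap, only the upper 50% of scores in each list, lists of equal size (63682 peaks), single-peak sites, 5 lists in place of 6, other thresholds and ranking among all shared sites. Motif content and distance to gene starts had been planned but need hg19 sequence or annotation, which was not used here, so sites have no gene names or sequence. Python 3.11.15, numpy 2.4.6, scipy 1.17.1 and matplotlib 3.10.9 were used.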

Additional observations from a re-analysis of the deposited data

Results flagged for a closer look

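Of the 14531 sites present in all 6 FOXA1 lists, 393 overlapped a peak of the SETD7 list, or 2.70% (2.45 to 2.98). The overlap was part of the rule for core sites and drew attention because it is a signal in a library outside the FOXA1 measurement, with no control library beside it. The share was 1.69% (1.48 to 1.92) of sites of 5 lists and 3.98% (3.84 to 4.13) of sites of 1 list. Over these classes it did not run in order with the number of FOXA1 lists, and the classes between them are not given. Of all 172239 merged sites, 167408 overlapped no SETD7 peak. The overlap is therefore not read as particular to sites of 6 lists. The 393 sites had a median merged width of 566 bp, against 529 bp for the core, and reached 3508 bp. Whether artefact-prone regions are among them was not tested.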

How the results depend on the processing

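No paired analysis was possible because each group is 1 library. Of 103 alternatives over 9 results, 57 left the value within its counting interval, or a count within 1.5 times. The number of core sites, 14138, was 6969 with the higher-scoring 50% of each list, 9105 without chromosomes 1, 3, 7, 8 and 12, and 22576 when shSETD7 was not required. The median merged width, 529 bp, was 533 bp with peaks up to 200 bp apart joined, 525 bp with at least 1 base in all 6 lists, 544 bp with the higher-scoring 50%, 524 bp without the 5 chromosomes, 476, 506, 521, 521 and 520 bp when shSETD7, shCTL, vehicle, the combination or DMSO was not required, and 251 bp for the stretch in all 6 lists. The median gap, 108580 bp, was 204198 bp with the higher-scoring 50%, 118600 bp with equal-sized lists, 118713 bp without the 5 chromosomes, and 68643, 105308, 89816, 102893 and 105728 bp when shSETD7, shCTL, vehicle, GSK2879552 or DMSO was not required.

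The share of core sites that moved at thresholds of 10 and 30 points was 66.6% and 23.1% for shSETD7 against shCTL, 68.8% and 29.7% for shSETD7 against vehicle, 57.9% and 17.4% for shCTL against vehicle, 39.1% and 3.30% for GSK2879552 against DMSO, 22.6% and 0.283% for the combination against DMSO, and 34.4% and 2.41% for the combination against GSK2879552. Ranked among all shared sites it was 34.0%, 44.4%, 30.3%, 18.1%, 8.37% and 15.8% in that order. With the higher-scoring 50% it was 15.2% for GSK2879552 against DMSO, 3.96% for the combination against DMSO and 12.3% for the combination against GSK2879552. With equal-sized lists it was 41.7% for shSETD7 against shCTL, 13.04% for GSK2879552 against DMSO and 10.3% for the combination against GSK2879552. With exactly 1 peak of each list it was 11.6% for GSK2879552 against DMSO. The balance of lower and higher core sites turned when ranked among all shared sites for shSETD7 against shCTL (3430 lower, 1374 higher), shSETD7 against vehicle (3554 and 2727), shCTL against vehicle (1681 and 2609), GSK2879552 against DMSO (726 and 1836) and the combination against GSK2879552 (1600 and 633), and not for the combination against DMSO (553 and 631). In each setting run, the shares that moved were higher in the 22Rv1 comparisons than in the LNCaP comparisons. The cause of the differences between settings was not tested. Motif content and distance to gene starts were not run. Depth is unknown from peak lists, and with 1 library per group neither the spread between replicates nor a change of occupancy can be had from ranks, since a loss common to all core sites would leave their core ranks as they are.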

Other observations

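Ranks of adjacent core sites were weakly correlated, and the coefficients were largest for pairs up to 2 kb apart. Over the 177 pairs of adjacent core sites up to 2 kb apart, Spearman's rho of their core ranks was 0.262 in shSETD7, 0.218 in shCTL and 0.218 in vehicle 22Rv1 cells, and 0.183 with GSK2879552 plus PFI-2, 0.115 with GSK2879552 and 0.166 with DMSO in LNCaP cells. Over the 727 pairs from 2 to 10 kb apart it was 0.136, 0.1104 and 0.0814 in the 22Rv1 lists and 0.0422, -0.0138 and 0.0117 in the LNCaP lists, in the same order. Over the 3281 pairs from 10 to 50 kb apart it was 0.0519, 0.0415 and 0.0179 in the 22Rv1 lists and 0.0272, 0.0150 and 0.0395 in the LNCaP lists. Over the 5603 pairs between 50 and 200 kb apart it was 0.0365, 0.0422 and 0.0108 in the 22Rv1 lists and 0.0165, 0.00534 and 0.0235 in the LNCaP lists, so beyond 2 kb it did not fall steadily with distance in every list. The pairs come from the same libraries, so these are descriptions.

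Core ranks were also set beside the distance to the nearest SETD7 peak. The 250 core sites with a SETD7 peak within 1 kb, but not overlapping, had median core ranks of 52.5 in shSETD7, 50.6 in shCTL and 51.6 in vehicle cells, and 41.3 with the combination, 45.6 with GSK2879552 and 44.4 with DMSO. The 1746 core sites with one 1 to 10 kb away had 46.4 in shSETD7, 51.8 in shCTL and 51.1 in vehicle cells, and 48.8, 47.7 and 48.3 in the LNCaP lists, in the same order. The 6361 core sites from 10 to 100 kb had 49.5, 50.9 and 51.6 in the 22Rv1 lists and 50.8, 50.4 and 51.3 in the LNCaP lists. The 5781 core sites more than 100 kb from a SETD7 peak had 51.3, 48.6 and 47.9 in the 22Rv1 lists and 50.1, 50.7 and 49.6 in the LNCaP lists. The median change of shSETD7 minus shCTL was 5.49 points within 1 kb, 1.26 points from 1 to 10 kb, 3.71 points from 10 to 100 kb and 5.81 points beyond 100 kb, so it did not run in order with distance.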
